A study of Bos grunniens with 18 samples.

Results

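Sphingolipids are membrane lipids built on a sphingoid base, and ceramide stands at the branch point of their metabolism. Ceramide is made de novo in the endoplasmic reticulum or released from other sphingolipids, and it is turned into sphingomyelin, glucosylceramide, ceramide 1-phosphate or sphingosine. Sphingosine kinases phosphorylate sphingosine to sphingosine 1-phosphate (S1P), a blood-borne lipid that guides the traffic of lymphocytes. The genes described here were the rows of the deposited yak blood table that carry the KEGG pathway of sphingolipid metabolism but not that of the lysosome, and that had 10 or more counts in at least 6 libraries. These were 35 of the 20607 genes listed. No measured difference between stages entered this rule, but the genes were chosen with earlier results of these data known.

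Whole blood of adult female yaks (*Bos grunniens*), 4 to 8 years old, was sequenced in 18 libraries, 6 from anestrus (the Y-A group), 6 from estrus (the Y-E group) and 6 from pregnancy (the Y-P group). Per the study's methods, 6 cows were followed through the stages, estrus was synchronized with a progesterone pessary, cloprostenol and GnRH, and the cows were inseminated artificially. Blood was drawn into EDTA tubes and mixed with TRIzol LS, without separation of cell types. The comparisons ask which of these genes differ between the reproductive stages.

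The libraries held 30247267 to 48401076 counts. Y-E replicate 6 stood apart from the other 5 Y-E libraries: hemoglobin complex genes took 8.36% of its counts against 0.0899% to 0.713% in the others, 3.10% to 16.7% in Y-A and 0.0272% to 0.376% in Y-P. The numbers of genes passing the main test in comparisons with Y-E are therefore also given without this library. So are the Y-E changes of genes shown library by library, and those of *GBA2*, *ORMDL1* and *VAPA*. Other values include it, among them FPKM levels, family shares, and the results for *SMPD4*, S1P receptors and S1P transport. Y-E replicate 6 lay outside the range of the other 5 Y-E libraries for 11 of the 35 genes (31.4%), compared with 47.2% of the 14508 genes tested.

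Of the 57 rows annotated to sphingolipid metabolism, 14 also carried the lysosome pathway, and 8 of the remaining 43 fell below the count limit. *DEGS2*, with 10 or more counts in 8 libraries, lay just inside this limit. A row described as the neutral ceramidase ASAH2 (ENSBGRG00000018416) and ENSBGRG00000004377, annotated as a sphingomyelin phosphodiesterase, lay just outside with 4 libraries each. The other rows below the limit were *CERS3*, *NEU2*, *SGMS2*, *CFAP161*, *Metazoa_SRP* and ENSBGRG00000003486. *SGMS2*, the sphingomyelin synthase of the plasma membrane, had at most 10 counts in a library and 58 in all 18. All 35 genes passed the low-count filter of the test. They lay on 21 chromosomes, with at most 4 on 1 chromosome.

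Levels between genes were compared in FPKM, the deposited value per length of transcript and depth of library. FPKM ran higher in Y-P across the genes tested. On log2(FPKM + 0.1), their median log2 fold change in Y-P was 0.22 against Y-A and 0.21 against Y-E. In the main test on scaled counts it was 0.03 and 0.04, so stage levels in FPKM are not read as changes. The 35 genes spanned a wide range, from a mean of 0.0986 FPKM for *DEGS2* to 125.3 FPKM for *CERS2* over the 18 libraries. Their median of 11.0 FPKM lay above the median of 7.78 FPKM over all genes tested. Under 1 FPKM were 7 genes, from 1 to 10 FPKM were 9, from 10 to 30 FPKM were 17, and *CERS2* and *DEGS1* lay above 30 FPKM. Of the 35 genes, 9 overlapped another row, 1 of them on the same strand. On the opposite strand, *CERS2* shared 2968 bases with *SETDB1* (21.7 FPKM). *ACER3* shared 1018 bases with a row at 16.9 FPKM. ENSBGRG00000015818, at 0.505 FPKM, lay along its whole length of 1335 bases opposite a row at 21.4 FPKM. Whether counting used the strand is not given, so reads in these overlaps cannot be told apart.

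**Figure D1:**
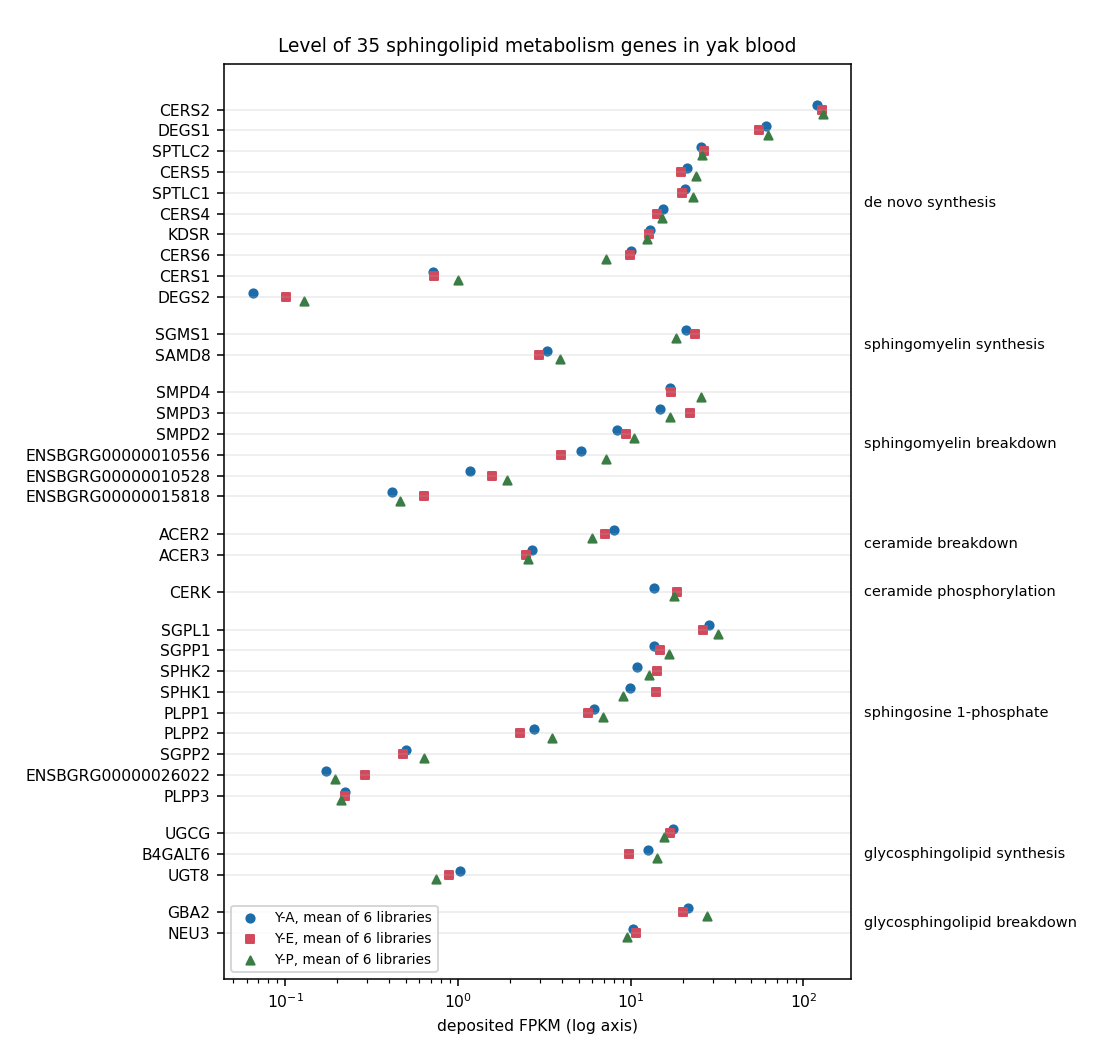
Mean deposited FPKM (log axis) of each of the 35 sphingolipid metabolism genes in each stage (6 libraries each), grouped by role. *CERS2* was the highest gene at a mean of 125.3 FPKM over all libraries, and the 3 stage means of most genes lay close together beside the range between genes.

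The de novo pathway joins serine and palmitoyl-CoA, reduces the product, adds a fatty acid and introduces a double bond. Its 10 genes summed to 286 ± 21.8 FPKM in Y-A, 287 ± 13.1 FPKM in Y-E and 300 ± 33.0 FPKM in Y-P (SD, n = 6), and 0 of the 10 passed the test in any comparison. The higher sum in Y-P was not seen in the test on scaled counts. There, 2 of the 10 had a log2 fold change above 0 in Y-P vs. Y-A and 4 in Y-P vs. Y-E. The subunits of serine palmitoyltransferase, the enzyme of the first and rate-limiting step, were near each other at mean levels of 21.1 FPKM for *SPTLC1* and 26.1 FPKM for *SPTLC2*. *KDSR*, the reductase of the second step, lay at 12.7 FPKM. Of the dihydroceramide desaturases, *DEGS1* lay at 59.4 FPKM and made up 99.3% to 100% of the pair's summed FPKM in a library.

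Ceramide synthases differ in the length of the fatty acid they attach, and *CERS2* is the one that prefers very long chains. *CERS2* lay at 119 FPKM in Y-A (109.8 lowest, 121.3 median, 124.1 highest), 128 FPKM in Y-E (119.1, 125.3, 140.9) and 129 FPKM in Y-P (103.3, 129.0, 157.0). In the test on scaled counts, its log2 fold change was −0.09 in Y-P vs. Y-A (edgeR adjusted p = 0.605). In Y-P vs. Y-E it was −0.18 (edgeR adjusted p = 0.206). *CERS2* took 65.9% to 78.9% of the summed FPKM of the 5 ceramide synthases counted, and was the largest of them in 18 of 18 libraries. The others were *CERS5* at 21.5 FPKM, *CERS4* at 15.0 FPKM, *CERS6* at 9.05 FPKM and *CERS1* at 0.814 FPKM. The *CERS1* row also carried an ortholog code that the other ceramide synthases lacked, so its level may not be that of a ceramide synthase alone. *CERS4* ranged from 2.55% to 16.7% of the family between libraries. Its lowest level in each stage was in replicate 6, at 4.68 FPKM in Y-A, 4.09 FPKM in Y-E and 6.95 FPKM in Y-P. The SE of its log2 fold change in Y-E vs. Y-A was 0.43, and 0.14 with the replicate number as a block.

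Sphingomyelin is made from ceramide by *SGMS1* in the Golgi apparatus, while *SAMD8* (SMSr) forms the related ceramide phosphoethanolamine. *SGMS1* lay at 20.8 ± 2.94 FPKM in Y-A, 23.6 ± 1.30 FPKM in Y-E and 18.2 ± 3.34 FPKM in Y-P (SD, n = 6), and *SAMD8* at a mean of 3.37 FPKM over all libraries. *SGMS1* took 79.9% to 93.5% of the pair in each library. Its share averaged 86.1% for Y-A, 89.0% for Y-E and 82.8% for Y-P.

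Sphingomyelin is broken down outside the lysosome by the neutral sphingomyelinases. *SMPD4* had the highest mean of these over all libraries (19.8 FPKM), at 16.9 ± 5.36 FPKM in Y-A, 17.0 ± 2.26 FPKM in Y-E and 25.4 ± 4.48 FPKM in Y-P (SD, n = 6). *SMPD3*, known for its part in exosome release, averaged 17.9 FPKM over all libraries, lay above *SMPD4* in Y-E at 22.03 ± 3.55 FPKM, and was the largest of the family in 7 of 18 libraries, while *SMPD2* averaged 9.40 FPKM. Of their summed FPKM, *SMPD3* took 45.4% in Y-E (39.5% to 50.8%), 35.5% in Y-A (19.4% to 52.8%) and 30.4% in Y-P (17.97% to 40.1%). *SMPD4* took 35.3% in Y-E (27.9% to 40.2%) and 49.2% in Y-P (42.7% to 56.7%), so that its ranges in these 2 stages did not overlap, with 42.3% in Y-A (26.4% to 54.2%) overlapping both. These shares were chosen for description after the values were seen and were not tested, and neither gene passed the main test on its own. In the main test, the log2 fold change of *SMPD4* in Y-P vs. Y-E was 0.39 (edgeR adjusted p = 0.1685). Of the 28 alternative fits, *SMPD4* was called higher there only with these 2 stages alone in the fit (edgeR adjusted p = 0.0470) and with limma on FPKM. The limma adjusted p was 0.0413 on log2(FPKM + 1) and 0.0438 on log2(FPKM + 0.1), scales that ran higher in Y-P across the genes tested.

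**Figure D2:**
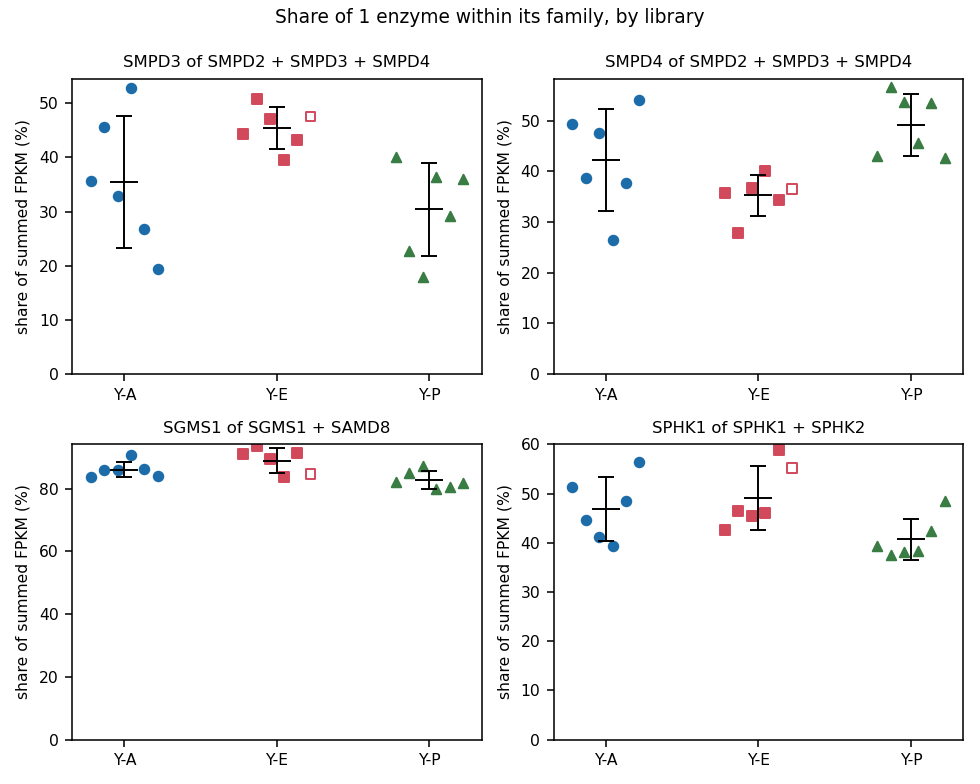
Share (%) of 1 enzyme in the summed FPKM of its family in each library of the 3 stages, with the mean and SD (n = 6) as bars and Y-E replicate 6 as an open symbol. *SMPD4* took 27.9% to 40.2% of the neutral sphingomyelinases in Y-E and 42.7% to 56.7% in Y-P, and *SGMS1* took at least 79.9% of its pair in every library.

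Another 3 rows carried an annotation to sphingomyelin breakdown but no gene name. ENSBGRG00000010556 averaged 5.44 FPKM, ENSBGRG00000010528 averaged 1.56 FPKM and ENSBGRG00000015818 averaged 0.505 FPKM. ENSBGRG00000010528 carried the same ortholog code as *SMPD3*, and the other 2 shared a code with each other and with 2 of the rows below the count limit. Whether any reads were shared among these rows was not tested.

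Of the enzymes that cleave or phosphorylate ceramide, *ACER2*, a ceramidase of the Golgi apparatus, lay at 8.01 ± 3.33 FPKM in Y-A, 7.13 ± 1.84 FPKM in Y-E and 5.97 ± 1.98 FPKM in Y-P (SD, n = 6), and *ACER3* averaged 2.57 FPKM. *CERK*, ceramide kinase, lay at 13.6 ± 4.43 FPKM in Y-A, 18.6 ± 1.59 FPKM in Y-E and 17.9 ± 3.27 FPKM in Y-P. These 3 genes did not pass the test in any comparison.

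S1P is formed by *SPHK1* and *SPHK2*, dephosphorylated by *SGPP1*, *SGPP2* and the broader lipid phosphatases *PLPP1* to *PLPP3*, and cleaved irreversibly by *SGPL1*. *SGPL1* was the highest of these 9 genes, at 28.3 ± 3.97 FPKM in Y-A, 26.2 ± 3.37 FPKM in Y-E and 32.0 ± 5.25 FPKM in Y-P (SD, n = 6). The kinases were near each other, with means of 12.7 FPKM for *SPHK2* and 11.0 FPKM for *SPHK1*. *SPHK1* took 37.4% to 58.9% of the pair and exceeded *SPHK2* in 4 of 18 libraries. *SGPP1* lay at 15.0 FPKM against 0.541 FPKM for *SGPP2*. *PLPP1* lay at 6.24 FPKM, *PLPP2* at 2.86 FPKM and *PLPP3* at 0.218 FPKM, and the unnamed phosphatase row ENSBGRG00000026022 lay at 0.219 FPKM.

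Glycosphingolipid synthesis begins with *UGCG*, which makes glucosylceramide, or with *UGT8*, which makes galactosylceramide. *UGCG* lay at 17.6 ± 0.937 FPKM in Y-A, 17.0 ± 1.97 FPKM in Y-E and 15.7 ± 3.03 FPKM in Y-P (SD, n = 6). *B4GALT6*, which extends glucosylceramide to lactosylceramide, averaged 12.2 FPKM, and *UGT8* averaged 0.888 FPKM. On the side of breakdown, the non-lysosomal glucosylceramidase *GBA2* lay at 21.6 ± 2.00 FPKM in Y-A, 20.0 ± 2.21 FPKM in Y-E and 27.7 ± 3.44 FPKM in Y-P. *NEU3*, the sialidase of the plasma membrane that acts on gangliosides, averaged 10.2 FPKM.

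Differences between stages were tested with edgeR on the deposited counts of all 14508 genes that passed its low-count filter, and levels within a gene are given as CPM, counts scaled to a common library size after TMM normalization. A gene was called when its Benjamini-Hochberg adjusted p over all genes tested was under 0.05. The study also asked for a log2 fold change of 1 or more in size, and 0 of the 35 genes met both thresholds in any comparison. That pair of thresholds was met by 0.0138% of the genes tested between estrus and anestrus, by 1.43% between pregnancy and anestrus and by 2.67% between pregnancy and estrus. Without this fold threshold, 5 of the 35 genes were called in at least 1 comparison, and the called changes were 0.36 to 0.86 in size on the log2 scale. At that threshold, 0.0207% of all genes tested were called in Y-E vs. Y-A. In Y-P vs. Y-A 2.22% were called higher and 3.61% lower, and in Y-P vs. Y-E 5.77% higher and 8.68% lower. The share of all genes tested that was called in at least 1 comparison was not counted. The labels do not say that a shared replicate number marks a cow, so the main test has no block for it, and its p-values measure the spread between these libraries.

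**Figure D3:**
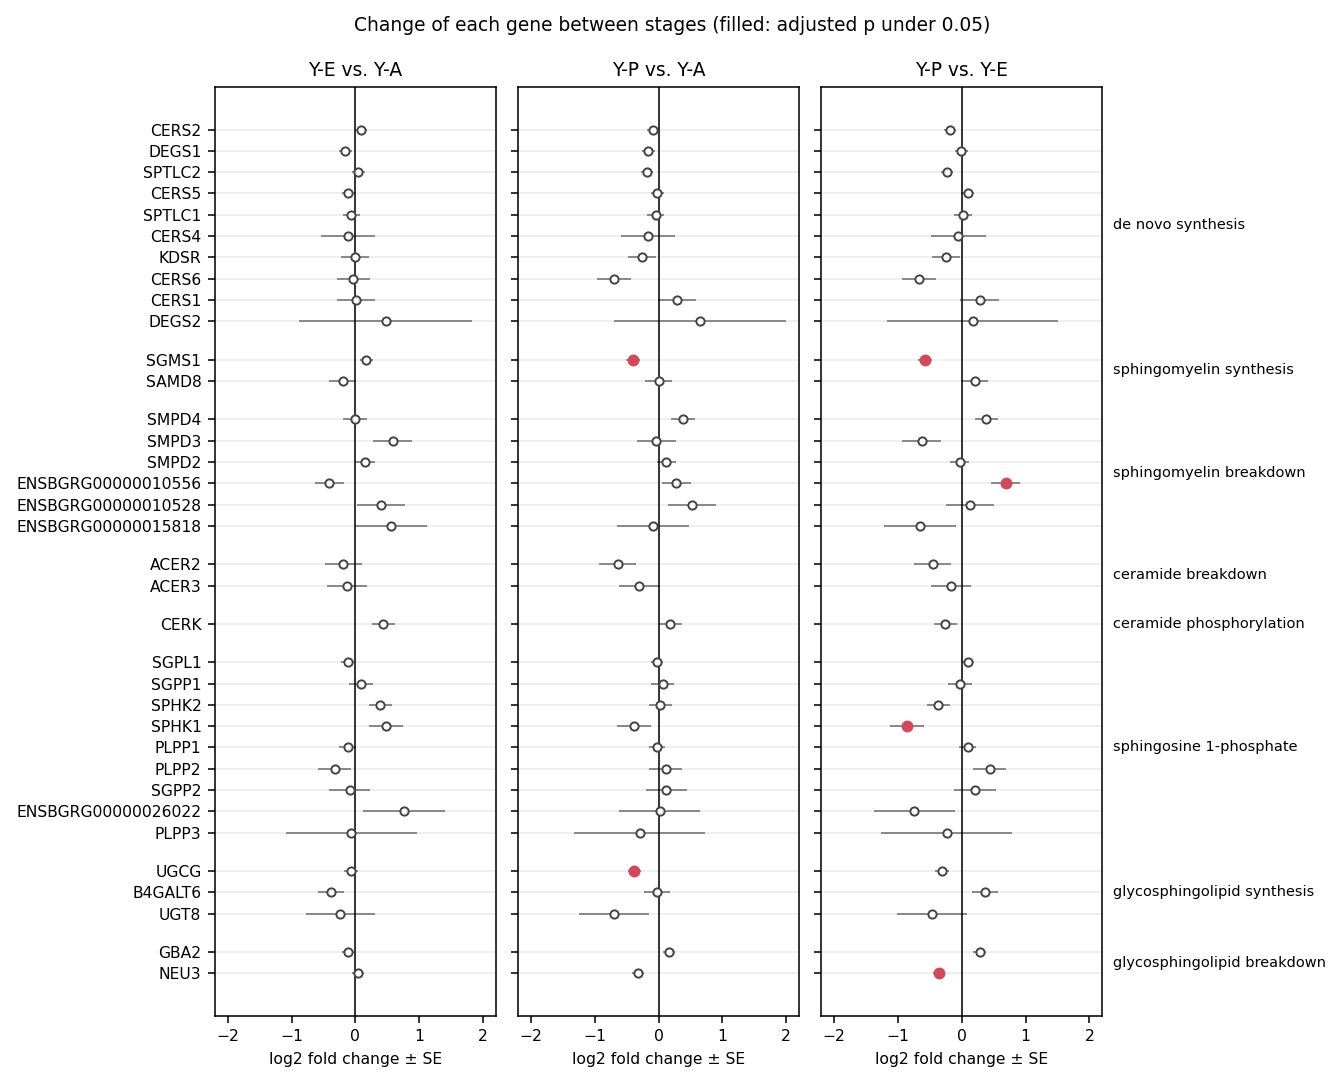
Log2 fold change (± SE) of the 35 genes in each pairwise comparison of the stages from edgeR, grouped by role, with filled symbols for an adjusted p under 0.05. No gene was called in Y-E vs. Y-A, *SGMS1* and *UGCG* were lower in Y-P vs. Y-A, and *SGMS1*, *NEU3* and *SPHK1* were lower and ENSBGRG00000010556 higher in Y-P vs. Y-E.

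Between estrus and anestrus (Y-E vs. Y-A), 0 of the 35 genes were called by edgeR, and 0.0207% of all genes tested were. At an unadjusted p under 0.05 there were 2 genes, *CERK* and *SPHK2*, compared with 900 (6.20%) of all genes tested. DESeq2 and limma called 0 as well, and edgeR without Y-E replicate 6 called 0. The log2 fold changes ran from −0.41 to 0.77 with a median of −0.03, against −0.01 over all genes tested, and 15 of the 35 were above 0.

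*CERK* was the gene with the smallest p. Its CPM in Y-A replicates 1 to 6 was 56.5, 54.3, 40.4, 26.1, 27.2 and 58.0, and in Y-E it was 52.1, 60.5, 65.2, 60.2, 65.0 and 52.3. In Y-P it was 55.2, 55.3, 37.4, 52.1, 45.9 and 51.8. Y-A replicates 4 and 5 were lower than every other library, and the 3 ranges overlapped. The log2 fold change in Y-E vs. Y-A was 0.44 (SE 0.18, unadjusted p = 0.0265 and edgeR adjusted p = 0.676), and 0.47 (edgeR adjusted p = 0.477) without Y-E replicate 6.

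*SPHK2*, the sphingosine kinase found in the nucleus and mitochondria, followed. Its CPM was 43.7, 35.4, 36.2, 18.6, 20.8 and 31.3 in Y-A and 36.1, 50.4, 51.9, 30.4, 39.0 and 36.2 in Y-E. In Y-P it was 33.0, 33.8, 26.6, 32.1, 30.0 and 34.0. The same Y-A replicates, 4 and 5, were again the lowest, and all 3 ranges overlapped. The log2 fold change in Y-E vs. Y-A was 0.39 (SE 0.18, unadjusted p = 0.0467 and edgeR adjusted p = 0.794), and 0.42 (edgeR adjusted p = 0.562) without Y-E replicate 6.

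*SMPD3* had the third smallest p. Its CPM was 49.4, 67.2, 37.4, 52.6, 23.3 and 17.5 in Y-A and 57.4, 80.5, 73.4, 51.9, 52.2 and 56.4 in Y-E. In Y-P it was 55.3, 31.6, 16.1, 52.1, 30.8 and 55.4. Y-E replicates 2 and 3 lay above every Y-A and Y-P library, and the other Y-E libraries lay within the range of Y-A. The log2 fold change in Y-E vs. Y-A was 0.59 (SE 0.31, unadjusted p = 0.0702 and edgeR adjusted p = 0.853), higher in 5 of 6 libraries of the same number, and 0.61 (edgeR adjusted p = 0.669) without Y-E replicate 6.

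Between pregnancy and anestrus (Y-P vs. Y-A), 2 of the 35 genes were called lower and 0 higher, while 3.61% of all genes tested were called lower and 2.22% higher. At an unadjusted p under 0.05 there were 5 of the 35 (14.3%), compared with 22.7% of all genes tested. DESeq2 called 3 of the 35. The log2 fold changes ran from −0.70 to 0.65 with a median of −0.03, against 0.03 over all genes tested, and 14 of the 35 (40.0%) were above 0, against 53.5% of all genes tested. For none of the 35 did the CPM ranges of Y-P and Y-A stand apart, whereas 2.32% of the genes tested were lower in Y-P with ranges that did not overlap.

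Between pregnancy and estrus (Y-P vs. Y-E), 3 of the 35 were called lower and 1 higher under TMM scaling, while 8.68% of all genes tested were called lower and 5.77% higher. Without Y-E replicate 6, 3 of the 35 were called, *SPHK1* no longer among them. At an unadjusted p under 0.05 there were 9 (25.7%), compared with 29.3% of all genes tested. The log2 fold changes ran from −0.86 to 0.69 with a median of −0.05, against 0.04 over all genes tested, and 14 of the 35 (40.0%) were above 0, against 53.7% of all genes tested. *SGMS1* and *NEU3* were lower in Y-P with ranges that did not overlap those of Y-E, as were 3.84% of the genes tested. Both comparisons share the Y-P libraries. The counts of called genes thus lay near those of the transcriptome as a whole.

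The share of genes above 0 depended on the scaling. With library size only, the median of all genes tested moved to 0.19 for pregnancy against anestrus and 0.18 for pregnancy against estrus, and 22 and 18 of the 35 genes were above 0. Relative to the median of all genes tested, 11 of the 35 lay above it against Y-A and 13 against Y-E, and 12 and 13 did with library size only. With limma on log2(FPKM + 1), the calls in Y-P vs. Y-A were 2 higher and 0 lower, *GBA2* (log2 fold change 0.34, adjusted p = 0.0309) and *SMPD4* (0.61, adjusted p = 0.0345). In Y-P vs. Y-E the balance of 3 lower and 1 higher also turned. With limma on either FPKM scale *SGMS1* was called lower and *GBA2*, *SMPD4* and ENSBGRG00000010556 higher, and with library size only *SGMS1* was called lower and *GBA2* and ENSBGRG00000010556 higher.

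*SGMS1* (ENSBGRG00000019263, chromosome 25, 9362460 to 9405925, minus strand) fell in pregnancy in both comparisons. Its CPM in replicates 1 to 6 was 26.6, 27.5, 28.5, 36.3, 34.1 and 31.7 in Y-A, and 34.5, 37.2, 34.8, 30.2, 38.1 and 33.3 in Y-E. In Y-P it was 28.4, 19.9, 21.9, 23.1, 23.1 and 23.5. Every Y-P library lay below every Y-E library, and only Y-P replicate 1 reached into the range of Y-A. The mean fell from 34.7 ± 2.82 in Y-E to 23.3 ± 2.83 in Y-P (SD, n = 6), a log2 fold change of −0.57 (SE 0.11, edgeR adjusted p = 0.00212), lower in 6 of 6 libraries of the same number. Without Y-E replicate 6 it was −0.58 (edgeR adjusted p = 0.00304). It was called in all 28 alternative fits run, at log2 fold changes of −0.64 to −0.37. Against Y-A (30.8 ± 3.87) the log2 fold change was −0.40 (SE 0.11, edgeR adjusted p = 0.0350), and this call held in 16 of the 28 alternative fits. It was lost, for example, without Y-A replicates 4 or 5 or Y-P replicates 2, 3, 4 or 5, and with limma on FPKM (adjusted p over all 28 from 0.00544 to 0.286). When blocked by replicate number, the adjusted p was 0.0432, and 0.0560 with Y-E replicate 6 also left out.

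*UGCG* (ENSBGRG00000003727, chromosome 7, 39384602 to 39430190, plus strand), which turns ceramide into glucosylceramide, fell in Y-P vs. Y-A. Its CPM was 51.6, 41.5, 43.0, 49.1, 49.7 and 45.0 in Y-A and 45.1, 39.4, 44.02, 39.7, 46.9 and 51.4 in Y-E. In Y-P it was 45.3, 32.1, 34.4, 32.2, 33.6 and 37.3. The Y-P libraries lay below all others except Y-P replicate 1, which lay within both ranges. The mean was 46.6 ± 4.05 in Y-A and 35.8 ± 5.03 in Y-P (SD, n = 6), a log2 fold change of −0.38 (SE 0.10, edgeR adjusted p = 0.0392), lower in 6 of 6 libraries of the same number. This call held in 15 of the 28 alternative fits, and was lost without any one of Y-A replicates 1, 4 and 5, Y-E replicate 5 and Y-P replicates 2 to 5, with adjusted p from 0.00646 to 0.300 over all 28. Against Y-E (44.4 ± 4.53) the log2 fold change was −0.31 (edgeR adjusted p = 0.0527), and −0.26 without Y-E replicate 6 (edgeR adjusted p = 0.107). With the replicate block this became a call at an adjusted p of 0.0310, which was 0.0810 with Y-E replicate 6 left out as well.

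*NEU3* (ENSBGRG00000024225, chromosome 13, 32161881 to 32176494, minus strand) fell in Y-P vs. Y-E. Its CPM was 30.0, 27.3, 25.8, 33.6, 29.7 and 32.8 in Y-A and 28.4, 29.4, 30.6, 32.3, 31.8 and 31.6 in Y-E. In Y-P it was 26.02, 24.04, 21.0, 22.4, 27.5 and 22.4. The highest Y-P library lay just under the lowest Y-E library, and 2 of the Y-P libraries lay inside the range of Y-A. The mean was 30.7 ± 1.52 in Y-E and 23.9 ± 2.46 in Y-P (SD, n = 6), a log2 fold change of −0.36 (SE 0.10, edgeR adjusted p = 0.0170), lower in 6 of 6 libraries of the same number, and −0.35 without Y-E replicate 6 (edgeR adjusted p = 0.0293). The call held in 25 of the 28 alternative fits, and was lost with library size only and with limma on either FPKM scale. Against Y-A (29.9 ± 3.01) the log2 fold change was −0.32 (edgeR adjusted p = 0.0524), lower in 6 of 6 libraries of the same number. It was called lower there in 6 of the 28 alternative fits, among them DESeq2 (adjusted p = 0.00780) and TMM with the hemoglobin genes left out (adjusted p = 0.0447), with adjusted p from 0.00780 to 0.520 over all 28.

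*SPHK1* (ENSBGRG00000025062, chromosome 19, 9263989 to 9268031, plus strand), the sphingosine kinase of the cytosol, fell in Y-P vs. Y-E by the largest amount among the called genes. Its CPM was 51.6, 31.9, 28.5, 13.5, 22.03 and 45.5 in Y-A and 30.1, 49.0, 48.6, 29.0, 62.6 and 50.1 in Y-E. In Y-P it was 24.1, 22.7, 18.4, 22.3, 24.7 and 36.0. Y-P replicate 6 lay above 2 Y-E libraries, the other 5 Y-P libraries lay below all of Y-E, and Y-A spread over nearly the whole range. The mean was 44.9 ± 13.0 in Y-E and 24.7 ± 5.94 in Y-P (SD, n = 6), a log2 fold change of −0.86 (SE 0.27, edgeR adjusted p = 0.0369), lower in 6 of 6 libraries of the same number. Without Y-E replicate 6 the log2 fold change was −0.83 at an adjusted p of 0.0596, and the call was also lost without Y-E replicates 2, 3 or 5 or any one of Y-P replicates 1 to 5. It held in 16 of the 28 alternative fits (adjusted p from 0.0117 to 0.0945). With the replicate block the edgeR adjusted p was 0.0214, and 0.0254 with Y-E replicate 6 left out as well. Against Y-A (32.2 ± 14.3) the log2 fold change was −0.38 (edgeR adjusted p = 0.423).

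ENSBGRG00000010556 (chromosome 26, 43257879 to 43271740, plus strand), annotated as a sphingomyelin phosphodiesterase, rose in Y-P vs. Y-E. Its CPM was 23.7, 17.6, 19.1, 12.1, 9.21 and 20.8 in Y-A and 17.0, 8.80, 11.7, 14.1, 10.1 and 15.7 in Y-E. In Y-P it was 23.0, 22.4, 23.9, 15.8, 14.2 and 25.3. Y-P replicates 4 and 5 lay inside the range of Y-E and the other 4 Y-P libraries above it. The mean was 12.9 ± 3.23 in Y-E and 20.8 ± 4.62 in Y-P (SD, n = 6), a log2 fold change of 0.69 (SE 0.22, edgeR adjusted p = 0.0450), higher in 6 of 6 libraries of the same number. Without Y-E replicate 6 it was 0.75 (edgeR adjusted p = 0.0434). It held in 17 of the 28 alternative fits (adjusted p from 0.00980 to 0.106), and was lost without any one of Y-A replicates 2 and 3, Y-E replicates 2 to 5 and Y-P replicates 1, 2, 3 and 6. The last 763 bases of this row overlap ENSBGRG00000012040, a mannosyltransferase gene on the opposite strand, which also rose in Y-P vs. Y-E (log2 fold change 0.79, edgeR adjusted p = 0.0227). The sources used here do not say whether counting used the strand, so reads in the overlap cannot be told apart.

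**Figure D4:**
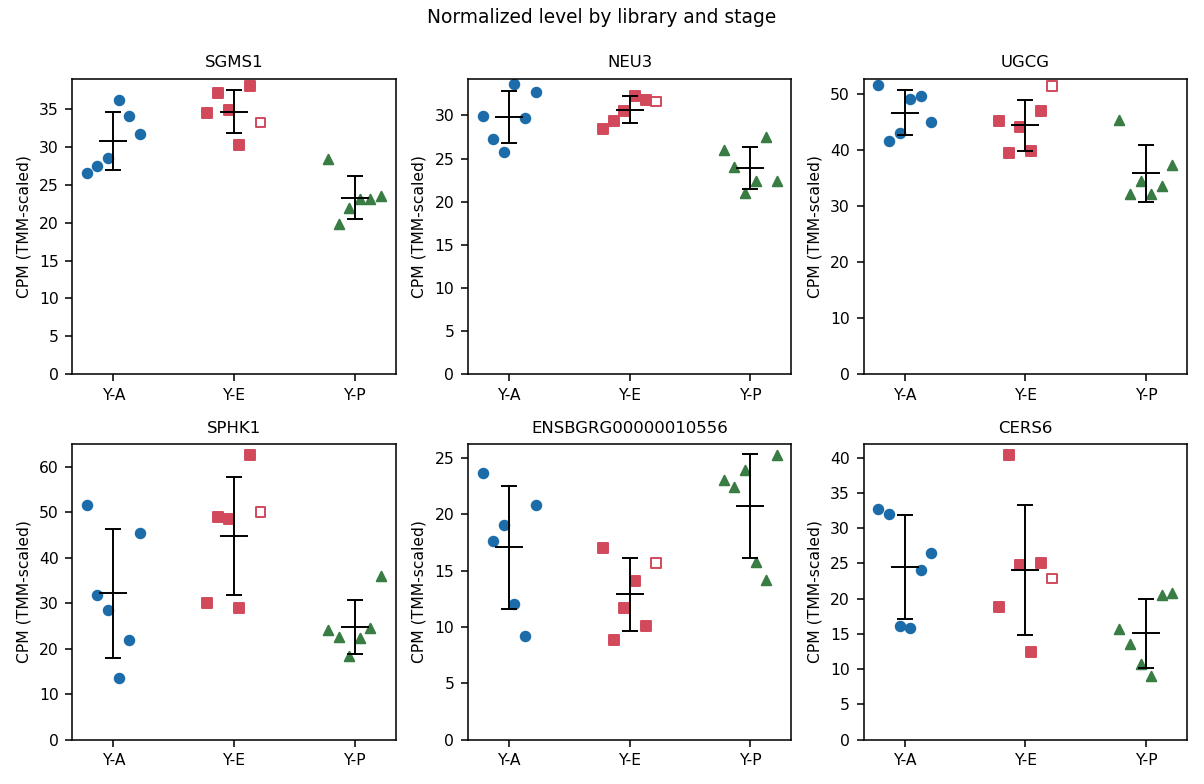
CPM after TMM normalization of *SGMS1*, *NEU3*, *UGCG*, *SPHK1*, ENSBGRG00000010556 and *CERS6* in each library of the 3 stages, with the mean and SD (n = 6) as bars and Y-E replicate 6 as an open symbol. The Y-P libraries of *SGMS1* and *NEU3* lay below all Y-E libraries, and those of the other 4 genes overlapped Y-E.

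*CERS6*, the ceramide synthase that prefers C16 chains, was called only with the replicate number as a block and, against Y-E, also without Y-E replicate 4. Its CPM was 32.7, 32.0, 16.2, 15.8, 24.05 and 26.5 in Y-A and 18.8, 40.4, 24.7, 12.5, 25.1 and 22.9 in Y-E. In Y-P it was 15.7, 13.6, 10.7, 9.04, 20.6 and 20.8. The ranges overlapped, while each Y-P library lay below the Y-A library and the Y-E library of its own number. The log2 fold change was −0.70 in Y-P vs. Y-A (edgeR adjusted p = 0.118, and 0.0356 with the replicate block) and −0.67 in Y-P vs. Y-E (edgeR adjusted p = 0.0957, and 0.0279 with the replicate block). With Y-E replicate 6 left out as well, the blocked adjusted p was 0.0424 and 0.0301, and without the block it was 0.116 in Y-P vs. Y-E.

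Among the genes not called, *GBA2* stood nearest to a call on the higher side in pregnancy. Its CPM was 95.7 ± 7.22 for Y-A, 88.2 ± 8.39 for Y-E and 107 ± 14.3 for Y-P (SD, n = 6), with a log2 fold change of 0.28 in Y-P vs. Y-E (edgeR adjusted p = 0.0573, and 0.107 without Y-E replicate 6), higher in 5 of 6 libraries of the same number. It was called higher there in 6 of the 28 alternative fits, which were DESeq2 (adjusted p = 0.0315), TMM with the hemoglobin genes left out (0.0448), library size only (0.0194), limma on log2(FPKM + 1) (0.00618) and log2(FPKM + 0.1) (0.00671), and the fit without Y-P replicate 5 (0.0327). Across the 35 genes, the stage with the lowest mean CPM was Y-P for 16 (45.7%), Y-E for 11 (31.4%) and Y-A for 8 (22.9%), against 37.8%, 35.8% and 26.4% of all genes tested. The spread within a stage, as the median coefficient of variation over the 35 genes, was 31.2% for Y-A, 23.3% for Y-E and 24.1% for Y-P, against 23.3%, 22.3% and 25.9% over all genes tested.

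S1P acts through receptors on the cell surface, and the blood libraries held their transcripts unevenly. *S1PR1*, the receptor by which lymphocytes leave lymphoid organs, averaged 105.8 FPKM, and *S1PR4*, a receptor of blood and immune cells, averaged 93.8 FPKM. *S1PR5*, known from NK cells, averaged 6.93 FPKM and *S1PR2* averaged 1.83 FPKM, while *S1PR3* had at most 17 counts in a library and did not enter the test. None of the 4 receptors tested was called in any comparison. *S1PR1* lay at 97.6 ± 11.5 FPKM in Y-A, 102 ± 13.2 FPKM in Y-E and 117 ± 23.3 FPKM in Y-P (SD, n = 6), and its CPM differed by a log2 fold change of −0.01 in Y-P vs. Y-E (edgeR adjusted p = 0.978). *S1PR4* lay at 75.6 ± 25.2, 109 ± 27.5 and 97.3 ± 25.3 FPKM in the same order, with a log2 fold change of 0.50 in Y-E vs. Y-A (edgeR adjusted p = 0.741).

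Of the genes listed for S1P transport, the ATP-binding cassette exporter *ABCC1* averaged 29.7 FPKM, *SPNS1*, a lysosomal lipid transporter, 13.4 FPKM, the plasma carrier apolipoprotein M (*APOM*) 7.53 FPKM, *ABCG2* 2.63 FPKM and *MFSD2B*, the exporter of red cells and platelets, 1.13 FPKM. *MFSD2A* had at most 22 counts in a library and did not enter the test. *SPNS2* was also listed but not matched under this symbol. None of the 5 tested was called in any comparison. *ABCC1* lay at 26.1 ± 3.62 FPKM in Y-A, 26.2 ± 4.40 FPKM in Y-E and 36.9 ± 7.78 FPKM in Y-P (SD, n = 6), with a log2 fold change of 0.30 in Y-P vs. Y-E (edgeR adjusted p = 0.105). *ABCG2* had a log2 fold change of 0.69 in Y-P vs. Y-E (edgeR adjusted p = 0.0844, and 0.0382 with the replicate block).

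**Figure D5:**
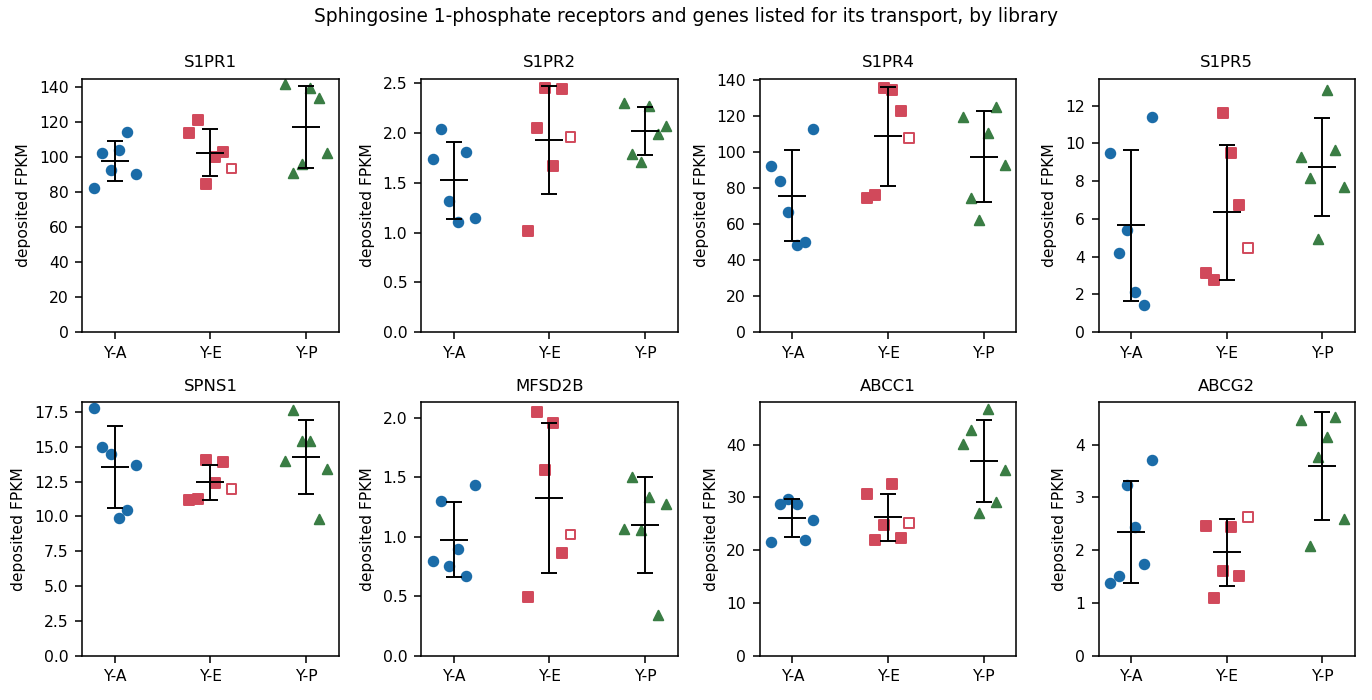
Deposited FPKM of 4 sphingosine 1-phosphate receptors and 4 genes listed for its transport in each library of the 3 stages, with the mean and SD (n = 6) as bars and Y-E replicate 6 as an open symbol. *S1PR1* and *S1PR4* lay far above *S1PR2* and *S1PR5*, and none of the 8 genes was called in any comparison.

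Genes next to the pathway were read from lists of related enzymes and proteins. The 8 lysosomal sphingolipid hydrolases tested, among them acid ceramidase (*ASAH1*) and acid sphingomyelinase (*SMPD1*), held 0 calls in each comparison, as did the 3 saposin and activator genes, the 10 genes of complex glycosphingolipid synthesis and the 10 genes of sphingoid base and fatty acid handling. Of the 4 regulators of serine palmitoyltransferase tested, *ORMDL1*, which restrains the enzyme when ceramide is high, rose in Y-P vs. Y-E from 10.1 ± 1.59 to 13.7 ± 1.85 CPM (log2 fold change 0.44, edgeR adjusted p = 0.0448, and 0.0756 without Y-E replicate 6 and 0.0537 with the replicate block). Of the 4 ceramide and glycolipid transfer genes tested, *VAPA*, the membrane protein of the endoplasmic reticulum to which the ceramide carrier binds, rose in both comparisons with Y-P. It lay at 61.2 ± 8.35 CPM in Y-A, 60.6 ± 2.67 CPM in Y-E and 76.3 ± 5.68 CPM in Y-P (SD, n = 6), with a log2 fold change of 0.32 in Y-P vs. Y-A (edgeR adjusted p = 0.0458) and 0.33 in Y-P vs. Y-E (edgeR adjusted p = 0.0205, and 0.0244 without Y-E replicate 6).

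In bulk blood, fewer cells of a type and less RNA per cell cannot be told apart. Marker lists of blood cell types moved with the same comparisons. Of 7 neutrophil markers tested, 5 were called lower in Y-P vs. Y-E and 0 in Y-P vs. Y-A, and their summed CPM was 3698 to 9352 for Y-A, 4744 to 12690 for Y-E and 2696 to 5986 for Y-P. Of 3 platelet markers, 2 were called lower in each comparison with Y-P, with sums of 261 to 350 for Y-A, 228 to 369 for Y-E and 140 to 196 for Y-P. Of 5 red cell precursor markers, 5 were called lower in Y-P vs. Y-A and 4 in Y-P vs. Y-E, with sums of 439 to 10580, 92.6 to 4496 and 39.0 to 122. Of 5 T cell markers, 2 were called higher in Y-P vs. Y-A and 3 in Y-P vs. Y-E, with sums of 642 to 807, 618 to 811 and 711 to 1344.

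Of 5 monocyte markers 1 was called lower and of 4 NK and cytotoxic cell markers 1 higher, both in Y-P vs. Y-E, with sums of 552 to 831, 452 to 871 and 340 to 637 for monocytes and 129 to 269, 122 to 300 and 189 to 299 for NK and cytotoxic cells. The 6 B cell markers and the 2 eosinophil and basophil markers held 0 calls. Their sums were 491 to 1634, 408 to 1350 and 569 to 1816 for B cells and 40.6 to 119, 45.5 to 92.7 and 34.8 to 80.6 for eosinophils and basophils. No marker matched in the table stayed under 10 counts in every library. The part of these shifts in the lower *SGMS1*, *UGCG*, *NEU3* and *SPHK1* levels and in the higher ENSBGRG00000010556 level was not tested.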

How the data were processed

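Whole-blood RNA of 18 yak libraries was used, 6 for each of the 3 stages, grouped by the sample titles. Per the study's methods and the labels, the authors trimmed reads with cutadapt 1.9, aligned them with HISAT2 2.2.1 to the Ensembl *Bos grunniens* genome and assembled transcripts with StringTie 2.1.6. The authors deposited FPKM values per gene (fragments scaled by exon length and library) and whole-number counts that were not normalized. The counting tool and its strand setting are not given in the sources used here. Coordinates are those of the deposited table.

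Counts were tested with edgeR 4.0.16 in R 4.3.3 (TMM, filterByExpr, quasi-likelihood test of stage, without a block, across all 18 libraries, two-sided, Benjamini-Hochberg adjustment within each of the 3 comparisons). TMM factors were 0.871 to 1.12. Each comparison was repeated in 28 alternative fits, among them DESeq2 1.42.0, limma 3.58.1 on log2(FPKM + 1) and log2(FPKM + 0.1), other scalings, the replicate number as a block and leaving out each library. In data simulated from these libraries' means (14240 genes, 200 changed 2-fold), the test recovered 57% of the changed genes in Y-P vs. Y-A and 51.5% in Y-P vs. Y-E.

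The study tracked 6 cows, but the labels do not say that a replicate number marks a cow. The main test therefore has no block, and blocked values are given beside a result where they change its call. Libraries with the same number correlated in their deviations from the stage means at 0.110 to 0.515 (Y-A and Y-E), −0.0492 to 0.370 (Y-A and Y-P) and −0.0545 to 0.400 (Y-E and Y-P), above 0.1 in 14 of 18 pairs. Pairs of different numbers were not set beside them, so these values cannot decide whether a number marks a cow.

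The genes and lists were chosen with earlier results of these data known. Levels by library are given for each called gene and for the 3 genes with the smallest p in each comparison, and of each role the gene with the highest FPKM is named with its levels. The S1P receptors and the S1P transport genes matched by symbol are all named, and other related genes when called. *CERS6*, *GBA2* and *ABCG2* changes are given beside these because their call depends on the fit or lay near the threshold. Matching older gene symbols was not attempted, so markers absent under the listed symbol were not used.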

Additional observations from a re-analysis of the deposited data

Results flagged for a closer look

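In 10 of the 105 groups of 6 libraries (35 genes in 3 stages), 1 library lay farther from the others than Dixon's 95% limit for the gap as a share of the range, where chance gives about 5% of groups. In Y-E replicate 6, *SPTLC1* reached 76.9 CPM against 50.5 to 56.4 in the other Y-E libraries (gap share 0.777), and *DEGS1* reached 109 CPM against 80.3 to 87.3 (0.756). Both belong to de novo synthesis, and this is the library with the high hemoglobin share.

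*SPHK1* was at 36.0 CPM in Y-P replicate 6 against 18.4 to 24.7 (gap share 0.645), and leaving this library out kept the gene called in Y-P vs. Y-E. *B4GALT6* was at 28.9 CPM in Y-E replicate 4 against 14.8 to 19.3 (0.681). *SMPD2* was at 17.0 CPM in Y-A replicate 5 against 11.5 to 13.1 (0.704). *CERS1* was at 7.09 CPM in Y-E replicate 3 against 3.99 to 4.77 (0.748). *SGPP2* was at 3.37 CPM in Y-P replicate 1 against 1.51 to 2.04 (0.714).

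The other 3 were at low counts. *DEGS2* was at 1.35 CPM in Y-A replicate 1 against 0 to 0.101 (0.925), *PLPP3* at 0.987 CPM in Y-P replicate 5 against 0 to 0.346 (0.650), and ENSBGRG00000015818 at 0.0336 CPM in Y-A replicate 4 against 0.738 to 0.960 (0.760).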

How the results depend on the processing

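Of the 10 changes of single genes followed through the 28 alternative fits, 0 reversed direction. In Y-E vs. Y-A, 0 of the 35 genes were called in every fit. In Y-P vs. Y-A, the count of 2 became 0 with library size only, 0 without the low-count filter, 0 with only the 2 stages compared and 0 with the fold threshold added, and 0 to 3 when a library was left out (0 without Y-A replicates 4 or 5 or Y-P replicates 2, 3 or 4, and 1 without Y-A replicate 1, Y-E replicate 5 or Y-P replicate 5). In Y-P vs. Y-E, the count of 4 became 0 with the fold threshold added and 2 to 5 when a library was left out (2 without Y-E replicates 2, 3 or 5 or Y-P replicates 2 or 3). The cause was not tested. With the replicate block, the counts were 0 in Y-E vs. Y-A, 3 in Y-P vs. Y-A and 6 in Y-P vs. Y-E, where *CERS6* and *UGCG* were added; with DESeq2 they were 0, 3 and 6. Depth limits *DEGS2*, *PLPP3*, ENSBGRG00000026022 and ENSBGRG00000015818, whose SEs were 0.56 to 1.35 on the log2 scale.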
